A study of Arabidopsis thaliana with 12 samples.

Results

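FRUITFULL (FUL) is a MADS-box transcription factor of Arabidopsis thaliana that acts in the switch to flowering, in the growth of the fruit wall and in the arrest of the inflorescence at the end of flowering. The shoot tip that produces the flowers, the inflorescence meristem, was dissected from wild-type plants of the Col-0 ecotype and from plants of the ful-7 genotype (T-DNA line SALK_033647) in the same ecotype, and its RNA was sequenced. These 6 libraries, 3 of each genotype, are 6 of the 12 libraries of the series and were chosen by their column headings in the deposited table of counts. The other 6 libraries, 3 of ful-1 and 3 of Ler pistils, entered only the comparison between tissues at the end and an alternative fit of all 12 libraries. Each sample pooled about 20 meristems with their buds up to stage 3 to 4, so that stem tips and the earliest flowers contributed RNA together; the plants stood on rockwool fed with Hyponex at 21 °C under long days of 16 h light. The pool is a bulk sample, in which fewer cells of a type and less RNA per cell cannot be told apart, and ful-7 is a single insertion allele.

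The meristem is kept as an open-ended stem cell zone by genes such as STM, WUS and CLV3, while TERMINAL FLOWER 1 (TFL1) holds floral identity genes such as LEAFY (LFY) and APETALA1 (AP1) back from its centre and these genes turn the primordia on its flanks into flowers. FUL is known to be expressed in the inflorescence meristem, and MADS-box proteins bind DNA at CArG boxes. Plant tissues also carry defence programmes, in which salicylic acid, camalexin and enzymes that degrade fungal walls take part, and a mitochondrial stress programme, in which an alternative oxidase and alternative NADH dehydrogenases bypass parts of the respiratory chain.

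FUL itself checked the labels. Its level was 95.1, 107 and 153 counts per 1000000 counts (CPM) in the 3 Col-0 libraries and 2.43, 1.71 and 3.28 CPM in the 3 ful-7 libraries. The groups did not overlap, and ful-7 held 2.09% of the wild-type mean (log2 fold change −5.56 ± 0.29 SE, adjusted p = 0.000359). None of the 3 tested genes on either side of FUL on chromosome 5 passed the threshold. The nearest of them, RLK1 and COB, had log2 fold changes of 0.40 ± 0.15 (adjusted p = 0.301) and 0.30 ± 0.12 (adjusted p = 0.315).

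The libraries held between 38340498 and 83606724 counts. Of the markers of the inflorescence and young flower, 11 were looked up, as CPM of the unscaled totals, and 1, TFL1, changed. STM stayed between 97.6 and 148 CPM and AP1 between 96.2 and 114 CPM in all 6 libraries, while CLV3 was under 1 CPM in each. The 5 ovule and seed markers were under 1 CPM in each library. Col-0 library 3 stood apart from the rest. In it, MS2, a tapetum gene of older anthers, was at 19.1 CPM against 0.287 to 2.3 CPM in the other 5 libraries, and SUC2, a phloem sucrose carrier, was at 82.5 CPM against 17.9 to 25.2 CPM. In the same library the floral organ gene SEP3 was at 19.5 CPM against 29.8 to 45.5 CPM, and the light-harvesting gene LHCB3 was at 285 CPM against 883 to 1000 CPM. List medians that this library moves are given with and without it.

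**Figure D1:**
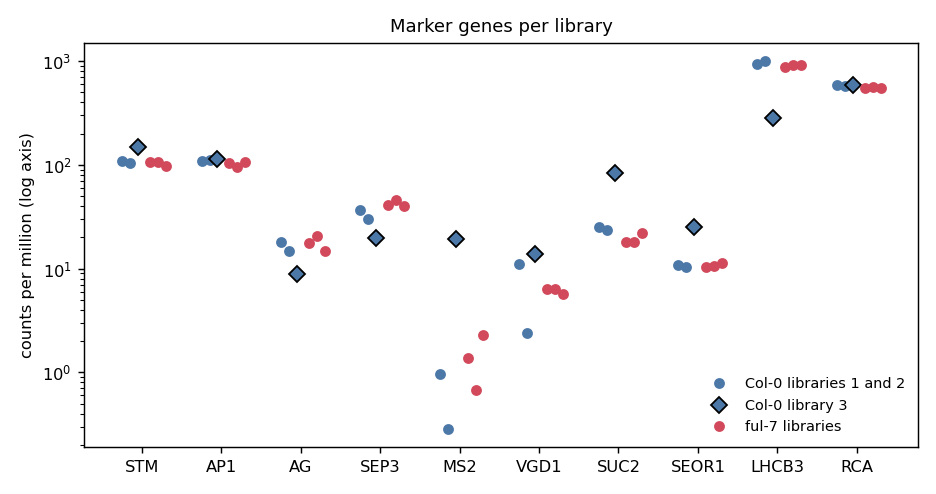
Counts per 1000000 on a log axis for 10 marker genes, with 1 point for each of the 6 meristem libraries. Col-0 library 3 (diamonds) lies above the other 5 libraries for MS2, VGD1, SUC2 and SEOR1 and below them for AG, SEP3 and LHCB3, while AP1 and RCA differ little between libraries.

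Across the genome few genes passed the edgeR threshold, a count that does not show how many genes differ. At an adjusted p under 0.05 (edgeR, quasi-likelihood), 66 of 22605 tested genes were called, or 0.292%; 45 were higher (0.199%) and 21 lower (0.0929%) in ful-7. DESeq2 called 812 genes (3.59%), 486 higher (2.15%) and 326 lower (1.44%), and these included all 66. At an unadjusted p under 0.05, 15.1% of genes passed in edgeR, 7.79% higher and 7.27% lower. The libraries of both genotypes did not overlap in 22.8% of genes, 11.9% higher and 10.9% lower. Without Col-0 library 3, edgeR called 93 genes, of which 53 were among the 66. The 13 that lost their call there had adjusted p between 0.0504 and 0.0758: AT1G02070, AT1G11300, AT5G13380, AT5G51440, ABCI8, AOX1A, ARGAH2, CBSX5, LOX2, NAC044, NYC1, PAR2 and XTH15. The median log2 fold change over all genes was −0.016. Spearman's rho between libraries of different genotypes was 0.967 to 0.975, against 0.968 to 0.974 within Col-0 and 0.974 to 0.978 within ful-7. The sizes of the 66 changes ran from 0.56 to 9.42 on the log2 scale, and 55 were at least 1. The median size was 1.86 on the log2 scale among the genes that rose and 1.82 among those that fell, and 14 genes rose by at least 4. None of the 66 overlapped between the genotypes. Of the 45 genes that rose, 18 had a Col-0 mean under 1 CPM. The calls came from all 5 nuclear chromosomes, at 0.244% to 0.355% of their tested genes. Of the 66, 10 were called in each of the 6 fits that leave out a library: FUL, MRD1, AT1G07887, HEI10, AT5G35935, AT1G13609, AT1G75945, AT1G47400, BHLH038 and BHLH039. The other genes lost their call in at least 1 of these fits, and 10, 19 and 29 of the 66 kept theirs without ful-7 library 1, 2 and 3. Only 18 of the 66 were called in at least 4 of the 6 fits. The 9 called in none were AT1G02070, AT1G11300, AT5G13380, AT5G51440, ARGAH2, CBSX5, NAC044, NYC1 and PAR2. Genes described below without these fits are not firmer for that.

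**Figure D2:**
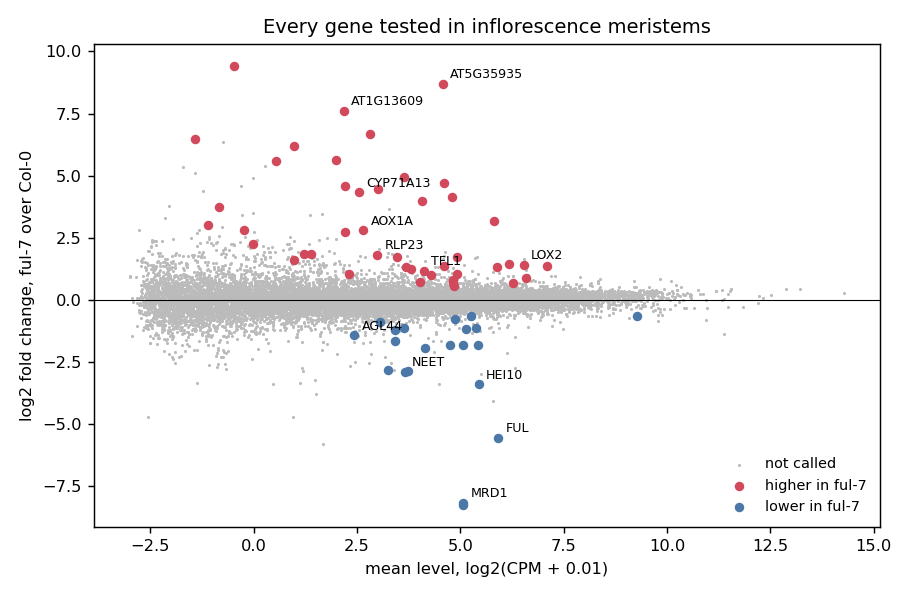
Log2 fold change of ful-7 over Col-0 against the mean level, as log2(CPM + 0.01), for the 22605 genes tested. The 45 genes called higher and the 21 called lower are coloured; FUL and the overlapping MRD1 locus lie lowest, and AT5G35935 and AT1G13609 are among the highest points.

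Of the 66 genes, a list of iron deficiency genes held 8. These were 22.9% of its 35 tested genes, against 0.292% of all genes. This list and the others were chosen with earlier results of these data known, so such shares are no independent evidence. The other lists held 11, among them OPT3, which is also in the iron list. In no list were 48, and 13 of the 66 are annotated as uncharacterized. The iron list is not complete, so a place outside it does not show that a gene is unrelated to iron. NEET, for example, encodes an iron-sulphur protein and lies outside it. The same limit holds for the genes annotated as uncharacterized. The 2 iron genes with the lowest p were BHLH038 and BHLH039, which encode transcription factors of the iron deficiency response. BHLH038 was at 0.101, 0.31 and 0.0979 CPM in Col-0 and 7.87, 7.96 and 7.58 CPM in ful-7 (adjusted p = 0.00126), and 35.7% of its exonic length is shared with AT3G56960 on the opposite strand.

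Several of the largest rises were at loci annotated as pseudogenes, as uncharacterized or by their family alone. AT5G35935, annotated as a pseudogene on chromosome 5, was at 0.185, 0.129 and 0.0326 CPM in Col-0 and at 49.8, 43 and 50.3 CPM in ful-7, a 413-fold higher mean (adjusted p = 2.7e-05). AT1G13609, which encodes a defensin-like protein, rose from 0.0504, 0.0517 and 0.0326 CPM to 10.1, 9.82 and 7.11 CPM (adjusted p = 5.3e-05). AT1G75945, an uncharacterized protein gene, rose from 0.235, 0.0517 and 0.0979 CPM to 13.6, 12 and 16.3 CPM (adjusted p = 0.000386). In all 3 the lowest ful-7 library was far above the highest Col-0 library. AT1G47405, annotated as a pseudogene, had 0 counts in the Col-0 libraries together and 281 in ful-7, which is at least 72.2-fold higher if 3 counts are taken as the limit for Col-0 as a group. AT5G02340, which encodes a cysteine- and histidine-rich protein, had 1 count in Col-0 and 146 in ful-7, a ratio of 113 with an exact 95% interval of 19.9 to 4480 for counting error only; 1486 bases of it match AT2G13950 at 95% identity, so its counts are uncertain.

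The largest falls were at 1 locus on chromosome 1 (TAIR10.1). MRD1, a gene named for its fall in the mto1 methionine mutant, dropped from 70.3, 78.1 and 52.5 CPM in Col-0 to 0.267, 0.262 and 0.166 CPM in ful-7 (log2 fold change −8.17 ± 0.24, adjusted p = 1.53e-05). HEI10, a RING-domain protein gene needed for meiotic crossovers, dropped from 83.7, 89.6 and 65.8 CPM to 7.44, 7.96 and 7.37 CPM (log2 fold change −3.39 ± 0.13, adjusted p = 5.3e-05). The exons of the long non-coding gene AT1G07887 lie wholly within those of MRD1 on the opposite strand, and 40.9% of the exonic length of HEI10 is shared with MRD1. The counts did not separate strands: of 42 oppositely oriented gene pairs that overlap by at least 90%, 41 had Col-0 counts within 10% of each other. The 3 falls are therefore not separate results, and their source among the 3 genes cannot be told apart. In ful-7, HEI10 kept 7.37 to 7.96 CPM where MRD1 kept 0.166 to 0.267 CPM. The fall counted at HEI10 includes the shared stretch, so it is not a measure of HEI10 RNA alone.

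Other called genes were also neighbours. Counting genes at most 3 tested places apart, 15 of the 66 lay in 5 such groups. One held AT1G47395, AT1G47400, AT1G07367 and AT1G47405, which all rose; another held AT2G30760, AT2G30766 and CYP71A13, which all rose and share exonic sequence on opposite strands. Another joined AGL44, which fell, to AT2G14230 and AT2G14247, which rose. The other groups were the MRD1 locus and the pair BHLH038 and BHLH039.

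Among the regulators of flowering, TFL1 was the gene that rose in edgeR. It was at 10.5, 10.3 and 11.1 CPM in Col-0 and at 24.2, 22.6 and 25.3 CPM in ful-7. The 3 ful-7 libraries lay close together and well above the 3 Col-0 libraries, a 2.26-fold higher mean (log2 fold change 1.18 ± 0.091, adjusted p = 0.00342). The call was lost when ful-7 library 1 was left out (log2 fold change 1.17, adjusted p = 0.0604), held when any other single library was, and was lost in the fit of all 12 libraries (adjusted p = 0.978). It was the 1 gene that edgeR called among 29 tested genes of floral transition and floral meristem identity, 3.45% against 0.292% of all genes; the median of that list was 0.085. DESeq2 called 4 of the list higher (TFL1, TOE1, SPL5 and AP2) and 2 lower (LFY and SPL3).

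The genes that TFL1 and FUL act beside did not pass the edgeR threshold. LFY, which sets floral fate, was at 25.8, 25.1 and 28.8 CPM in Col-0 and 20, 16.9 and 21.7 CPM in ful-7; the groups did not overlap, and the log2 fold change of −0.44 ± 0.11 had an adjusted p of 0.204 in edgeR and 0.0425 in DESeq2. SEP4, a floral MADS-box cofactor, was at 35.5, 38.5 and 45.4 CPM and 28.1, 26.1 and 32 CPM (adjusted p = 0.203 in edgeR and 0.0369 in DESeq2). AP2, a repressor of flowering and a floral organ gene, was at 17.3, 13.8 and 10.6 CPM and 22.6, 24.8 and 19 CPM (adjusted p = 0.219 in edgeR and 0.0308 in DESeq2). These 3 genes were called by DESeq2 alone. AP1, SOC1, SVP and AGL24, the other flowering regulators looked up by name, had log2 fold changes between −0.08 and 0.18 with adjusted p between 0.36 and 0.952.

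One further MADS-box gene fell in edgeR. AGL44, also known as ANR1 and studied as a nitrate-responsive regulator of lateral roots, was at 8.26, 7.44 and 7.88 CPM in Col-0 and 2.73, 3.43 and 2.66 CPM in ful-7 (log2 fold change −1.42 ± 0.16, adjusted p = 0.0165). FUL and AGL44 were the 2 genes that edgeR called among 51 tested MADS-box proteins. FUL is the mutated gene, so its call came with the genotype and this class is not read against all genes. In the list of MADS-box genes of flowering and flowers, which leaves FUL out, AGL44 was the 1 gene called of 30 tested. That is 3.33% against 0.292% of all genes. In the class, DESeq2 called 4 lower (FUL, AGL44, AGL42 and SEP4) and 1 higher (AGL18). The AGL44 call held without Col-0 library 3 or ful-7 library 2 and was lost without any other library (adjusted p = 0.0627 to 0.168).

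**Figure D3:**
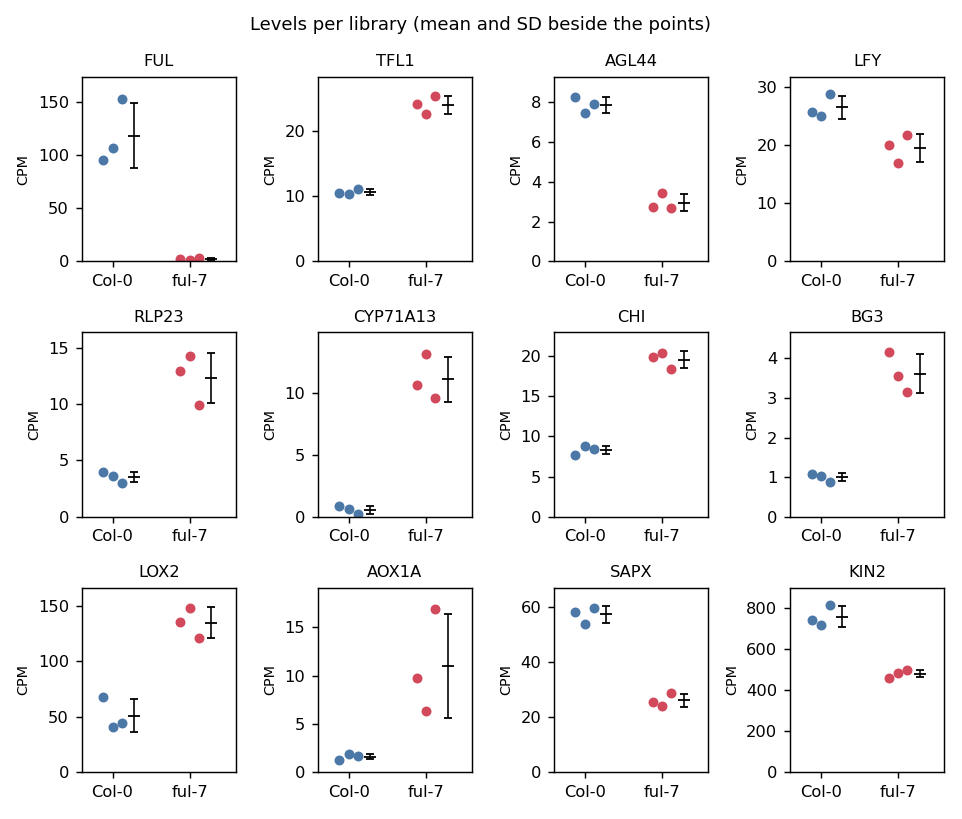
Counts per 1000000 of 12 genes in each library, with the mean and SD of each group beside its 3 points. In each panel the Col-0 and ful-7 libraries do not overlap; LFY is the 1 gene shown that did not pass the edgeR threshold.

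Most genes of the pathogen defence list had higher levels in ful-7, and few passed the test. Of 34 tested genes of the salicylic acid and pathogen defence list, 2 rose and 0 fell in edgeR (5.88% against 0.292%), 8 rose and 0 fell in DESeq2, and 32 had a log2 fold change above 0, against 47.3% of all genes. The median was 0.42, and it stayed between 0.299 and 0.686 when each library was left out in turn; the lowest came without Col-0 library 3, where 6 members were called and 25 were above 0. RLP23, a receptor-like protein that detects a peptide of microbial necrosis-inducing proteins, was at 3.93, 3.62 and 3 CPM in Col-0 and 12.9, 14.2 and 9.9 CPM in ful-7 (log2 fold change 1.81 ± 0.18, adjusted p = 0.0115). CYP71A13, a cytochrome P450 of camalexin synthesis, was at 0.856, 0.62 and 0.18 CPM and 10.6, 13.1 and 9.57 CPM (log2 fold change 4.34 ± 0.45, adjusted p = 0.0121). AT2G30766 shares 22.1% of the exonic length of CYP71A13 on the opposite strand. It was at 5.2, 3.18 and 0.751 CPM in Col-0 and 54, 61.7 and 43.4 CPM in ful-7. The counts did not separate strands, so how much of the CYP71A13 rise is its own cannot be told. Neither RLP23 nor CYP71A13 overlapped between genotypes. Both lost their call without Col-0 library 2, ful-7 library 1 or ful-7 library 2 (adjusted p = 0.0591 to 0.0968).

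Other members of the list, named after their values were seen, passed only in DESeq2. PAD3, which makes camalexin in the last step, was at 0.201, 0.103 and 0.441 CPM in Col-0 and 1.94, 2.93 and 0.36 CPM in ful-7, so the groups overlapped (adjusted p = 0.235 in edgeR and 0.011 in DESeq2). ACD6, an ankyrin protein that raises salicylic acid signalling, was at 0.856, 1.19 and 0.539 CPM and 3.14, 2.76 and 2.81 CPM (adjusted p = 0.0872 and 8.78e-06). DMR6, a salicylic acid hydroxylase, was at 63.5, 62 and 31.1 CPM and 104, 101 and 100.3 CPM (adjusted p = 0.199 and 0.00461). ACD6 and DMR6 were thus higher in each ful-7 library.

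Some enzymes that act on fungal cell walls rose as well. Their class was drawn up after values were seen. Of 18 tested chitinases and beta-1,3-glucanases, 3 rose and 0 fell in edgeR, where 0.199% of all genes rose, and DESeq2 called 5 higher; the median log2 fold change was 0.485, and 0.325 without Col-0 library 3. The chitinase gene CHI was at 7.72, 8.79 and 8.45 CPM in Col-0 and 19.9, 20.4 and 18.4 CPM in ful-7 (log2 fold change 1.23 ± 0.1, adjusted p = 0.00465), a call lost without ful-7 library 1 (adjusted p = 0.0809). BG3, a beta-1,3-glucanase, was at 1.07, 1.03 and 0.881 CPM and 4.15, 3.54 and 3.16 CPM (adjusted p = 0.0191), and the chitinase AT2G43620 rose from between 22.4 and 24 CPM to between 33.5 and 35 CPM (adjusted p = 0.0411). Of 124 tested receptor kinases, 2 rose and 0 fell in edgeR and 13 rose and 0 fell in DESeq2, where 0.199% and 2.15% of all genes rose. CRK8, a cysteine-rich receptor-like kinase, rose from 0.269, 0.31 and 0.424 CPM to 1.4, 1.95 and 1.54 CPM (adjusted p = 0.0445), and AT1G11300, a lectin receptor kinase, rose with a log2 fold change of 1.03 ± 0.14 (adjusted p = 0.0445). One disease resistance gene went the other way. AT4G16857, of the TIR-NBS-LRR class, fell by 1.16 on the log2 scale (adjusted p = 0.0174), but 426 bases of it match AT4G16920 at 95.8% identity, so its counts are uncertain.

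Promoters are shown for 4 genes that rose and carry a W-box, the element that WRKY factors of defence bind: RLP23 and CRK8 from the groups above, and LOX2 and AOX1A, described next. The other genes called higher that carry one, not shown, are AT1G11300, AT1G47400, AT1G75945, AT5G13380, FRO3 and UMAMIT37. The defence genes CYP71A13, CHI, BG3 and AT2G43620, also called higher, had no match to the form searched. The window was the 250 bases before the annotated gene start, read from TAIR10.1 with its RefSeq annotation. The W-box was searched on both strands as TTGACC alone. TTGACT, another form of it, was not searched and is left unmarked where it occurs, as in RLP23 and AOX1A. TTGACC was present in 10 of 41 protein-coding genes called higher (24.4%) and in 0 of 20 called lower. Of all 20420 tested protein-coding genes with a window, 12.1% carried it. The G-box, CACGTG, was present in 12.2%, 15% and 7.31% of the same sets, and the CArG box in 3 of 41, 1 of 20 and 2.66%. A match is a string of letters and not a shown binding site. The 4 sequences run 5′ to 3′ on the gene's strand. Capitals mark TTGACC, which reads as GGTCAA where it lies on the other strand.
RLP23 (chr2:13862615-13862864, minus strand): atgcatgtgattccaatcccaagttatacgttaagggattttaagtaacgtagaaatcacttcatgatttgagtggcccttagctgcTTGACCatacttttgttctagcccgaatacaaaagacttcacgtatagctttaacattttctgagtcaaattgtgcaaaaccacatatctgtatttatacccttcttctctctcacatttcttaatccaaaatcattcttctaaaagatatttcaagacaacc
CRK8 (chr4:12129235-12129484, plus strand): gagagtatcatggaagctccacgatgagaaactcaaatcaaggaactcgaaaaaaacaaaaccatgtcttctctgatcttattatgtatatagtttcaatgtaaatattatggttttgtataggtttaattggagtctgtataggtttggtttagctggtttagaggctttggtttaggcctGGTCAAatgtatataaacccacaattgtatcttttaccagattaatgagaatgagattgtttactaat
LOX2 (chr3:16524995-16525244, plus strand): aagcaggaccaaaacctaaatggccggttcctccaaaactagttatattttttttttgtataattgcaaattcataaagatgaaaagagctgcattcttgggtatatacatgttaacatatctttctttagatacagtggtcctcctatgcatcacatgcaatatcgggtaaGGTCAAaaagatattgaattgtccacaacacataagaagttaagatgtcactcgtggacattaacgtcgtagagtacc
AOX1A (chr3:7906271-7906520, plus strand): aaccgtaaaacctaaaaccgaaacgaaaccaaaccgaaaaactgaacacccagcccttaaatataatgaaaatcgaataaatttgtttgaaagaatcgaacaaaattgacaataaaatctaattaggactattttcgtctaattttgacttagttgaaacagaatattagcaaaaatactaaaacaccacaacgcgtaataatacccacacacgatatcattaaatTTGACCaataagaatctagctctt

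The marked TTGACC lies 163 bases before the start in RLP23, 68 in CRK8, 78 in LOX2 and 24 in AOX1A.

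In edgeR, 1 gene of the jasmonate list rose. LOX2, the plastid lipoxygenase that starts jasmonate synthesis, was at 67.9, 40.7 and 43.9 CPM in Col-0 and 136, 149 and 121 CPM in ful-7, a 2.66-fold higher mean (log2 fold change 1.41 ± 0.2, adjusted p = 0.0445). The call held without Col-0 library 1 and was lost without any other library (adjusted p = 0.0758 to 0.23). The other 33 tested members did not pass in edgeR, so that 2.94% of the list was called against 0.292% of all genes, and the list's median was −0.007. DESeq2 called LOX2, CORI3 and AOC1 higher and 0 lower. ARGAH2, an arginase outside the list, rose by 0.68 ± 0.096 on the log2 scale (adjusted p = 0.0445).

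Genes known to respond to mitochondrial dysfunction included 2 that rose. This list of 20 was drawn up after AOX1A and its companions had been seen among the genes that rose, so its counts describe these genes and are no independent evidence. Of 19 tested, 2 rose in edgeR and 13 in DESeq2, 0 fell in either, 17 were above 0 and the median log2 fold change was 0.959. Without Col-0 library 3 the median was 1.095 and 0 were called in edgeR. AOX1A, the alternative oxidase, was at 1.28, 1.84 and 1.65 CPM in Col-0 and 9.72, 6.36 and 16.9 CPM in ful-7 (log2 fold change 2.80 ± 0.37, adjusted p = 0.0374). The AOX1A call held without ful-7 library 2 or 3 and was lost without any other library (adjusted p = 0.0735 to 0.163). AT5G51440, a small heat shock protein gene, rose from 0.252, 0.103 and 0.261 CPM to 1.29, 1.33 and 1.81 CPM (adjusted p = 0.0445).

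Of the other tested genes, 11 passed in DESeq2 alone and 6 in neither tool. NDB2 and NDB4 encode alternative NAD(P)H dehydrogenases. NDB2 was at 10.1, 10.1 and 8.57 CPM in Col-0 and 14.9, 15.7 and 14.8 CPM in ful-7, and NDB4 at 0.101, 0 and 0.0653 CPM and 1.65, 0.984 and 3.06 CPM (adjusted p = 0.072 and 0.0517 in edgeR). NAC13, a transcription factor that activates such genes, was at 7.42, 7.26 and 7.38 CPM and 14.3, 10 and 18.5 CPM (adjusted p = 0.161 in edgeR and 0.00179 in DESeq2). UGT74E2, a glycosyltransferase, was at 7.65, 6.8 and 10.8 CPM and 20.3, 15.8 and 25.9 CPM (adjusted p = 0.0912 in edgeR). The Col-0 and ful-7 libraries did not overlap for 14 of the 19 genes, all higher in ful-7, where 11.9% of all genes tested were higher without overlap. Among the 13 genes that DESeq2 called, ful-7 library 3 was the highest library for 12; the part of this library in the result was not tested further than by leaving it out.

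**Figure D4:**
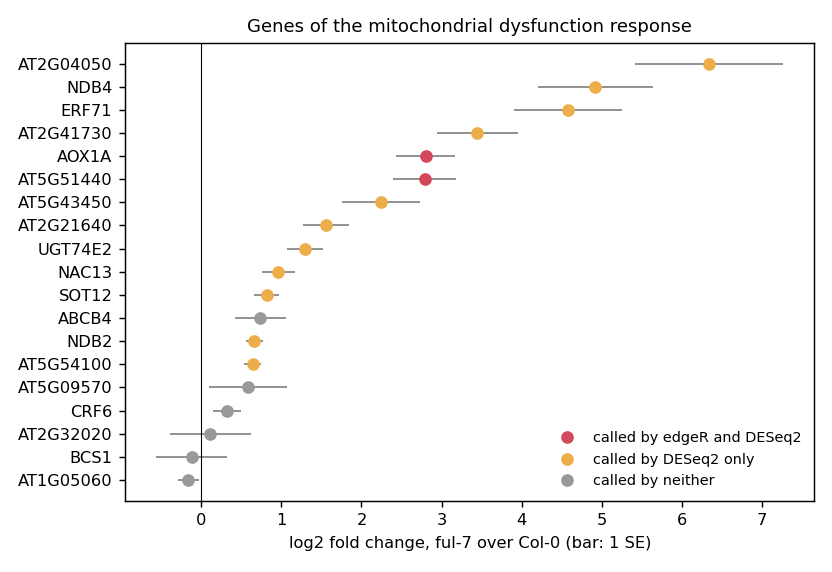
Log2 fold change of ful-7 over Col-0 with 1 SE for the 19 tested genes of the mitochondrial dysfunction response, a list drawn up after values were seen. Colours show which tool called the gene; 13 were called by DESeq2 and 2 of those also by edgeR, and AT2G04050, the top point, rests on 2 counts in Col-0.

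The sulphate list held no edgeR call. Of 29 tested genes of sulphate assimilation and sulphur response, 0 passed in edgeR, 3 rose and 0 fell in DESeq2, and at an unadjusted p under 0.05, 11 were higher and 0 lower, where 7.79% of all genes were higher. The median was 0.473, and 0.41 without Col-0 library 3. SULTR1;2, a sulphate importer best known from roots, was at 2.15, 1.5 and 1.88 CPM in Col-0 and 5.36, 5.14 and 3.53 CPM in ful-7 (adjusted p = 0.0912 in edgeR and 4.96e-05 in DESeq2). APS1, an ATP sulphurylase, was at 110.1, 119 and 100 CPM and 155, 164 and 138 CPM (adjusted p = 0.167 and 0.00602). BGLU28, a glucosidase of sulphur deficiency, was at 2.18, 0.517 and 1.5 CPM and 18.7, 33.3 and 2.02 CPM, with 2 of the 3 ful-7 libraries far above the rest and ful-7 library 3 within the Col-0 range.

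Further genes that rose are described one by one. XTH15, a xyloglucan-modifying enzyme, rose from 7.59, 6.51 and 8 CPM to 17.5, 23.3 and 14.6 CPM (log2 fold change 1.32 ± 0.18, adjusted p = 0.0445); 31.6% of its exonic length overlaps AT4G14120 on the other strand. It was the 1 gene that edgeR called of 18 tested xyloglucan endotransglucosylases, 5.56% against 0.292% of all genes. DESeq2 called 3 of them higher (XTH15, XTH24 and XTH25), where 2.15% of all genes were higher. UGT84A3, a glucosyltransferase of hydroxycinnamates, rose from 21.43, 19.59 and 20.11 CPM to 36.2, 34.4 and 36.9 CPM (log2 fold change 0.81 ± 0.081, adjusted p = 0.0115). The GDSL lipase AT5G33370 rose from 17.8, 11.7 and 12.2 CPM to 51.9, 47.6 and 39.5 CPM (adjusted p = 0.0137). NAC044, a transcription factor of the DNA damage response, rose from 1.38, 1.6 and 0.718 CPM to 6.49, 5.77 and 11.7 CPM (adjusted p = 0.0445). The NAC044 call was lost whichever library was left out (adjusted p = 0.0614 to 0.179 in edgeR). The WRKY, MYB, AP2/ERF, bZIP and homeobox families had 0 of 48, 91, 76, 50 and 71 tested genes called in edgeR. DESeq2 called 2, 3, 7, 1 and 1 of them, and 9, 15, 14, 6 and 11 had an unadjusted p under 0.05 in edgeR. Over all genes these shares were 0.292%, 3.59% and 15.1%.

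Genes that fell are likewise described one by one. SAPX, the stromal ascorbate peroxidase that removes hydrogen peroxide, dropped from 58.1, 53.8 and 59.5 CPM to 25.5, 23.9 and 28.5 CPM (log2 fold change −1.14 ± 0.094, adjusted p = 0.00483). NYC1, a chlorophyll b reductase, dropped from 54.1, 67.4 and 81.2 CPM to 19.5, 13 and 24 CPM (log2 fold change −1.84 ± 0.24, adjusted p = 0.0344). NEET, an iron-sulphur protein, was at 16, 23.1 and 27.8 CPM and 3.09, 1.99 and 3.84 CPM (adjusted p = 0.0114), and the rubredoxin ENH1 fell by 1.83 and the ferritin FER4 by 1.82 on the log2 scale (adjusted p = 0.0309 and 0.00982). For each of the 5 genes all ful-7 libraries lay below all Col-0 libraries; SAPX, NEET and FER4 lost their call without ful-7 library 1 (adjusted p = 0.0884 to 0.0968), and NYC1 did so whichever library was left out (adjusted p = 0.0504 to 0.221). ENH1 lost its call without Col-0 library 2 or any ful-7 library (adjusted p = 0.0525 to 0.221). In the photosynthesis list, 0 of 39 tested genes passed in edgeR and 0 in DESeq2. An unadjusted p under 0.05 was found for 2 of them in edgeR, where 15.1% of all genes had one. The median of the list was 0.134, but −0.029 without Col-0 library 3.

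AT3G49160, of the pyruvate kinase family, fell by 2.84 ± 0.36 and AT3G43670, a copper amine oxidase, by 2.86 ± 0.35 on the log2 scale (adjusted p = 0.0341 and 0.0256). AT1G22550, a transporter of the major facilitator superfamily, dropped from 14.8, 14.9 and 18.7 CPM to 5.35, 4.44 and 5.64 CPM (adjusted p = 0.00819). PAR2, a small repressor of shade responses, dropped from 40.2, 33.8 and 37.9 CPM to 20.6, 24.2 and 19.9 CPM (adjusted p = 0.0445), and ALN, the allantoinase of purine breakdown, from between 43.8 and 52.4 CPM to between 29.1 and 30 CPM (adjusted p = 0.0411).

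Among cold and dehydration genes, 1 fell in edgeR. KIN2, induced by cold and abscisic acid, dropped from 743, 716 and 814 CPM to 460, 480 and 496 CPM (log2 fold change −0.66 ± 0.094, adjusted p = 0.0453). It was the 1 gene of 24 tested that edgeR called, 4.17% against 0.292%. DESeq2 called 4 of the list lower and 0 higher, where 1.44% of all genes were lower. Only 4 of 24 were above 0, against 47.3% of all genes. The list's median was −0.316, or −0.221 without Col-0 library 3. KIN1, a close relative, was at 4.77, 3.9 and 10.9 CPM in Col-0 and 2.69, 3.32 and 2.8 CPM in ful-7 (adjusted p = 0.263 in edgeR and 0.0471 in DESeq2), with Col-0 library 3 the highest. Of 33 tested genes of abscisic acid and proliferative arrest, 0 passed in edgeR. At an unadjusted p under 0.05, 1 was higher and 9 were lower, where 7.79% and 7.27% of all genes were. In DESeq2, 1 was higher and 1 lower, where 2.15% and 1.44% of all genes were. HAI1, an abscisic acid phosphatase, was at 53.4, 57.6 and 77.8 CPM and 27.3, 19.5 and 32 CPM (adjusted p = 0.0772 in edgeR and 1.06e-06 in DESeq2).

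Many lists of growth and hormone genes held no edgeR call. The shoot meristem and organ boundary list had 0 of 30 called, 7 at an unadjusted p under 0.05 and 0 in DESeq2. The auxin, cytokinin, gibberellin and brassinosteroid lists had 0 of 39, 37, 25 and 24 called. They had 3, 5, 7 and 7 genes at an unadjusted p under 0.05 in edgeR, and 2, 1, 4 and 0 called in DESeq2. Over all genes these 2 shares were 15.1% and 3.59%. CKX3, a cytokinin-degrading oxidase, had the lowest p of the cytokinin list, at 0.168, 0.569 and 0.294 CPM in Col-0 and 1.73, 1.44 and 2.12 CPM in ful-7 (adjusted p = 0.103 in edgeR and 3.31e-05 in DESeq2). Of 326 tested ribosomal protein genes 0 passed in edgeR, 10 rose in DESeq2, and 89 were higher and 3 lower at an unadjusted p under 0.05, where 7.79% of all genes were higher and 7.27% lower and DESeq2 called 2.15% higher; the median was 0.177, and 0.093 without Col-0 library 3. In the list of cell division and replication 53 of 67 genes were above 0, with a median of 0.199 and 0 called in edgeR, 13 at an unadjusted p under 0.05 and 1 in DESeq2.

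Of 58 tested lipid transfer proteins, 0 were called in edgeR, 16 were higher and 2 lower at an unadjusted p under 0.05, DESeq2 called 9 higher, and the median was 0.261, and 0.338 without Col-0 library 3. In the fit of all 12 libraries, which tested 25154 genes, the lipid transfer median was 0. F-box proteins had a median below 0, with 0 of 200 called in edgeR, 2 higher and 24 lower at an unadjusted p under 0.05, 4 lower in DESeq2 and a median of −0.127. The shares over all genes were 7.79% higher and 7.27% lower at an unadjusted p under 0.05, and 2.15% higher and 1.44% lower in DESeq2.

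The lists of other cell types moved with Col-0 library 3. The phloem list had a median of −0.291, and −0.016 without that library, in which SUC2 stood highest. The anther, tapetum and pollen list had a median of −0.221, and 0.27 without it. The lignin and secondary wall list went from −0.182 to −0.033, and the stomatal and guard cell list from −0.261 to −0.126.

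**Figure D5:**
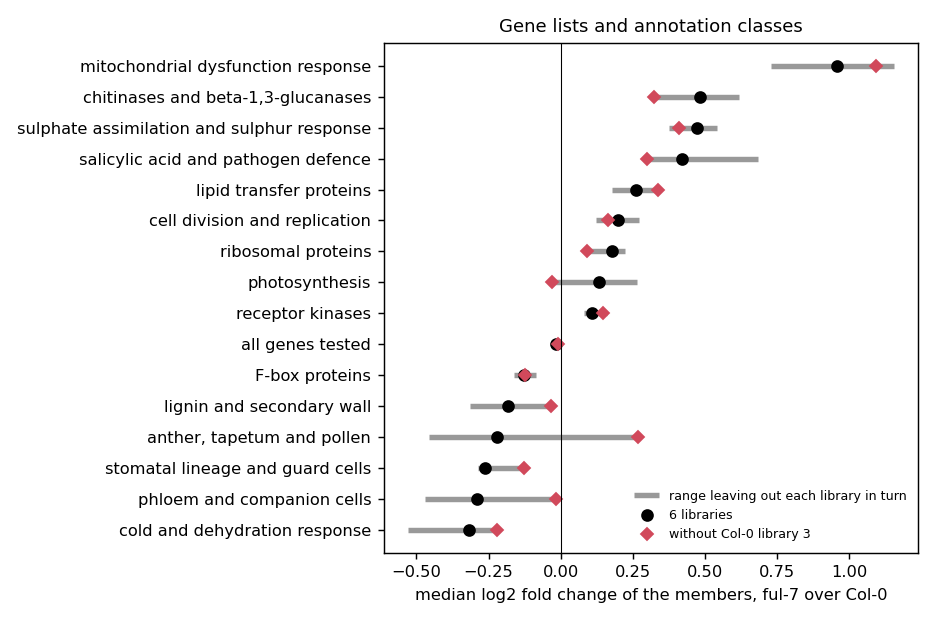
Median log2 fold change of ful-7 over Col-0 for 13 gene lists and classes of interest beside all genes tested and 2 lists drawn up after values were seen. The other gene lists were chosen with earlier results of these data known. Points are the fit of 6 libraries, diamonds the fit without Col-0 library 3 and bars the range when each library is left out in turn; the anther and photosynthesis medians cross 0.

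Whether the same genes responded in pistils was asked with ful-1, an allele in the Ler ecotype, against Ler pistils. Tissue, ecotype, allele and dissection differ between the 2 comparisons and cannot be told apart. A test of the difference between the 2 effects called 15 of the 45 genes that rose in meristems and 2 of the 21 that fell, against 0.751% of 25154 genes. The 66 genes were chosen on the same meristem libraries that enter this difference, so an excess over all genes is built in and is not read. In pistils themselves, 14 of the 45 genes that rose were too low to be tested; of the other 31, 0 were called in either direction, and of the 21 that fell 3 were called lower and 0 higher, where 0.0845% of all pistil genes were called higher and 0.101% lower. One pistil library, ful-1 library 3, held 13191949 counts, against 27545430 to 38215149 in the other pistil libraries. Its top 50 genes held 26.8% of its counts, against 8.33% to 10.6%. Plastid genes held 2.04% of its counts, against 0.118% to 0.393%. Without ful-1 pistil library 3 the test of the difference called 33 of the 45 and 15 of the 21, against 10.2% of 25577 genes. In that fit of the pistils, 2 of the 31 were called lower and 0 higher, and of the 21 that fell 7 were called lower and 1 higher, where 5.12% of all pistil genes were called higher and 8.26% lower. The difference at FUL had an adjusted p of 0.235, and of 0.00303 without that library, and those at MRD1 and HEI10 had an adjusted p of 0.131 and 0.528, and of 0.0573 and 0.138 without it. In the pistils MRD1 fell by 6.56 ± 0.41 and HEI10 fell by 4.12 ± 0.42 on the log2 scale (adjusted p = 0.0102 and 0.0351), so the fall at this locus was measured in both comparisons.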

How the data were processed

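RNA from 6 pools of dissected inflorescence meristems, 3 of Col-0 and 3 of ful-7, was sequenced in paired reads of 150 bases from a stranded total RNA kit, per the labels' protocols. The deposited values are whole-number counts per gene for 36917 loci, not normalized; STAR 2.7.0b, featureCounts 1.6.0 and the TAIR10 build are named in the submitters' processing notes. Columns carry a group but no replicate number, so libraries are numbered in column order. The series record calls the samples biological replicates; nothing says which plants each pool came from, so p-values measure the spread between these pools.

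Counts of the 6 libraries were fitted with edgeR 4.0.16 (TMM scaling, its default filter on low counts, quasi-likelihood test) in R 4.3.3, and p-values were adjusted by Benjamini-Hochberg over 22605 genes. CPM are counts for each 1000000 of the TMM-scaled totals, except marker levels, which are unscaled. DESeq2 1.42.0, another filter, other scaling, all 12 libraries and leaving out each library were alternatives. In simulated counts of this comparison on 22352 genes, 76% of 50 genes changed 2-fold and 32% of 50 changed 1.5-fold were called. Gene names and coordinates come from the RefSeq annotation of TAIR10.1, matched by locus for 36632 loci. Of 1695 list entries, 90 had no gene of that name. Copies were searched with blastn 2.17.0 (at least 100 bases, 95% identity).

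Members and lists were chosen with earlier results of these data known. Genes named are FUL, up and down, the 15 called genes with the widest change, no overlap of libraries and 2 CPM or more on average in one genotype, up to 5 called genes per list (or the 1 with the lowest p), up to 3 per class, 3 genes on each side of FUL, 8 flowering regulators and the 2 iron genes with the lowest p; other genes named, the added classes and the promoters shown were chosen after their values were seen. The tissue difference used an interaction term over 12 libraries.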

Additional observations from a re-analysis of the deposited data

Results flagged for a closer look

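The effect of the ful mutation differed between meristems and pistils, by the interaction test in edgeR, for 20 of the genes looked up. Most of these genes had been called on the same meristem libraries that enter the difference, so their number is built in and is not read. Over all genes the test called 0.751%, and 10.2% without ful-1 pistil library 3. Values are log2 effects in meristems minus those in pistils, with the adjusted p. For loci annotated as uncharacterized or as a pseudogene they were 7.48 for AT5G35935 (adjusted p = 0.00332), 6.68 for AT2G14247 (0.0244), 5.6 for AT2G30766 (0.0336), 4.59 for AT5G05250 (0.0192) and 2.58 for AT3G56360 (0.00406). For AT1G13609, of the defensin-like family, the value was 6.5 (0.000952). AT2G14247 and BHLH101 were too low in pistils to be tested there.

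Among defence and jasmonate genes they were 6.28 for CYP71A13 (0.024), 2.53 for BG3 (0.0336), −1.63 for AT4G16857 (0.0225), 2.89 for CYP81F4 (0.042), which shares 88.2% of its exonic length with AT4G37409 on the opposite strand, and 3.3 for LOX2 (0.00636). CYP71A13 shares 22.1% of its exonic length with AT2G30766 on the opposite strand, so its counts are uncertain. The log2 effect at LOX2 was 1.41 in meristems and −1.87 in pistils (adjusted p = 0.169 in pistils). Among mitochondrial stress genes they were 2.81 for AOX1A (0.0198) and 4.8 for UGT74E2 (0.000292). The log2 effect at UGT74E2 was 1.29 in meristems, where edgeR did not call it (adjusted p = 0.0912), and −3.48 in pistils (adjusted p = 0.0102).

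The remaining values were 4.88 for BHLH101 (0.0422), 2.01 for FRO3 (0.0244), 1.67 for ORG1 (0.032), −3.52 for AT3G49160 (0.0199), 3.4 for LDOX (0.0225), 3.76 for NAC044 (0.0198) and 1.17 for UGT84A3 (0.0249). Ecotype, allele and tissue cannot be told apart in these differences.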

How the results depend on the processing

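The count of 66 genes past the threshold became 153 with no filter on low counts, 26 in a fit of all 12 libraries and 812 with DESeq2. Leaving out single libraries gave between 10 and 93 genes: 29, 26 and 93 without Col-0 libraries 1, 2 and 3, and 10, 19 and 31 without ful-7 libraries 1, 2 and 3. Of the 66 genes, 10 were called in all 6 such fits, FUL, MRD1 and AT5G35935 among them, and 9 in none. DESeq2's size factors, the stricter filter, a fold change of at least 2 (55 genes) and removal of organelle genes changed the count by less than 1.5 times. The count of 189 genes that differed between tissues became 2599 without ful-1 pistil library 3 and 1236 with DESeq2; the cause was not tested. No paired analysis was possible because the columns carry no replicate numbers. With 3 libraries a group, changes under 2-fold were often missed in simulated counts.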
